A study of Mus musculus with 3 samples.

Results

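The Clca genes encode the calcium-activated chloride channel regulators, and 6 of them were followed here (Clca4b, Clca4a, Clca1, Clca3a1, Clca3a2 and Clca2), found by symbol among the 31053 genes of the table. Despite the name, these proteins are not channels: they are secreted or surface proteins with a metalloprotease-like domain, and CLCA1 is known to modulate the chloride channel TMEM16A. In the gut, CLCA1 is a product of goblet cells that is found in mucus, CLCA2 is known from stratified squamous epithelium, and mouse Clca3a1 is a marker of lymphatic endothelium. The family was chosen by measured values of these same libraries, with Clca4b in colonocytes on day 7 in the lead. Every level and every difference between days below is therefore a description.

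Tissue was taken from C57Bl/6 mice, bought at 6 weeks of age, at the lower end of the gut (distal colon with anus), so both columnar and squamous epithelium were present. There were 3 libraries, each from the pooled tissue of 5 mice: day 0 from untreated mice labelled histologically normal, and days 7 and 42 from mice whose drinking water held 3% dextran sulfate sodium (DSS, which damages colon epithelium) for 6 days, labelled severe colitis at day 7 and recovered at day 42. With 1 library per day there is no replicate, so no test between days was possible. Intervals are 95% and cover counting error only: exact Poisson for summed counts and exact Clopper-Pearson for shares of cells.

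The libraries held 11037, 14376 and 11667 cells at days 0, 7 and 42, with medians of 5708 to 6218 unique molecular identifiers (UMIs, each 1 captured RNA molecule) per cell. The authors' cell table gave each cell 1 of 29 clusters and 1 of 14 names. The Clca genes may have been among those used for clustering, so their differences between clusters are a description. Colonocytes comprised clusters 2, 7 and 22. Cluster 2 went from 51.6% of colonocytes at day 0 to 69.3% at day 7 and 72.0% at day 42, cluster 7 from 48.3% to 3.3% and 27.7%, and cluster 22 held 279 cells at day 7 against 4 and 5 at the other days. All 8 colonocyte markers had UMIs in the colonocytes of every library, from 13649 to 21016 CPM in sum (CPM is the count scaled to 1000000 UMIs). Other cells' markers moved with the day in the same colonocytes: the 5 neutrophil markers summed to 0.9 CPM at day 0 (Csf3r at 0), 2193 at day 7 and 102.5 at day 42, and the 5 keratinocyte markers to 518, 1770 and 1631 CPM. Cluster 22 held the most of both, 12447 and 8036 CPM at day 7, beside 10943 CPM of colonocyte markers. Cluster 2 alone had 1327 CPM of neutrophil and 804 CPM of keratinocyte markers at day 7. Cells with over 20% mitochondrial UMIs made up 42.6%, 23.6% and 23.98% of colonocytes at days 0, 7 and 42, and 71.3%, 33.3% and 32.00% of cluster 2. The part of these markers and of RNA quality in the Clca values was not tested. The libraries shared 40 to 55 cell barcodes pairwise, which touched 39 of 6253 colonocytes.

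All 6 genes lie within 369.8 kb on the minus strand of chromosome 3 (chr3:144729677-145099443, GRCm38, GENCODE M21), together with Clca3b, which is not among the 6. The order is Clca3a1, Clca3a2, Clca3b, Clca4b, Clca4a, Clca1 and Clca2. Clca4b (ENSMUSG00000074195, chr3:144910921-144932529) and Clca4a (ENSMUSG00000068547, chr3:144952480-144975045) are neighbours 19950 bases apart, each with 14 exons and 925 codons. Their longest coding transcripts were 95.6% identical over the aligned bases, and those of Clca3a1 and Clca3a2 96.4%. Likeness on that scale matters for counting. Of the 50-base windows of Clca4b, 21% also occurred in Clca4a, but none of the windows in the last 500 bases did, which is the end of the transcript that 3' libraries read. Clca3a1 had 26 such windows in its last 500 bases that Clca3a2 also holds, outside its own last 500 bases. A few reads of Clca3a1 could therefore match both genes, and how such reads were counted was not examined.

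The promoter table (RefSeq, GRCm38.p6) held 4 of the 6 genes. The sequence of Clca4b is shown because its level moved most between the days, and it runs 250 bases up to the base before the start, on the minus strand (chr3:144932530-144932779).
Clca4b: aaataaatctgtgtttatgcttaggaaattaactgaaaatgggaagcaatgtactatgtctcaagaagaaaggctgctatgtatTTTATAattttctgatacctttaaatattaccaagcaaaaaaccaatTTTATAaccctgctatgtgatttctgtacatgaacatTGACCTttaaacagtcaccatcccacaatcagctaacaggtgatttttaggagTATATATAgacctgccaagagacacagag
Capitals mark matches, on either strand, to 3 short motifs. The motif TATATA occurred as 2 overlapping matches, 29 and 27 bases before the start, and 5.25% of the 32851 promoters of this length held it anywhere. The core promoter motif TATAAA occurred 166 and 119 bases before the start and was held by 12.4% of promoters. The nuclear receptor motif AGGTCA occurred 82 bases before it and was held by 14%. TTTATNG (CDX homeobox, 9.81%) and TTCNNNGAA (STAT, 7.02%) had no match in this window. The next pair is shown because the transcripts are nearly alike while the cells of highest CPM differed, lymphatic cells for Clca3a1 and keratinocyte cluster 8 for Clca3a2; they are the 80 bases nearest the start of Clca3a1 (chr3:144760978-144761057) and Clca3a2 (chr3:144819495-144819574).
Clca3a1: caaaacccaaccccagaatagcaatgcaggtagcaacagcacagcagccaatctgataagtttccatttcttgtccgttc
Clca3a2: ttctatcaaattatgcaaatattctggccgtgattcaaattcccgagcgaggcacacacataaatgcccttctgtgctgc
None of the 5 motifs matched in either stretch, and TATATA matched 99 and 97 bases before the start of Clca3a1, outside the stretch shown. Over their full 250 bases the longest run that both promoters hold was 7 bases.

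The genes differed in the cells that held most of their UMIs. Clca4b and Clca4a UMIs lay mostly in colonocytes, which held 90.8% to 99.5% of the library's Clca4b and 89.5% to 95.8% of its Clca4a. The secretory colonocytes (cluster 15) held 85.0% to 88.3% of Clca1, and keratinocytes held 87.3% to 95.1% of Clca3a2 and 87.7% to 96.9% of Clca2. Clca3a1 had its highest CPM in lymphatic cells, which held 13.8%, 37.1% and 39.7% of its UMIs at days 0, 7 and 42, while the more numerous keratinocytes held 63.5%, 45.1% and 38.1%. Levels of different genes are not compared, since a UMI count is not corrected for how well a transcript is captured.

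**Figure D1:**
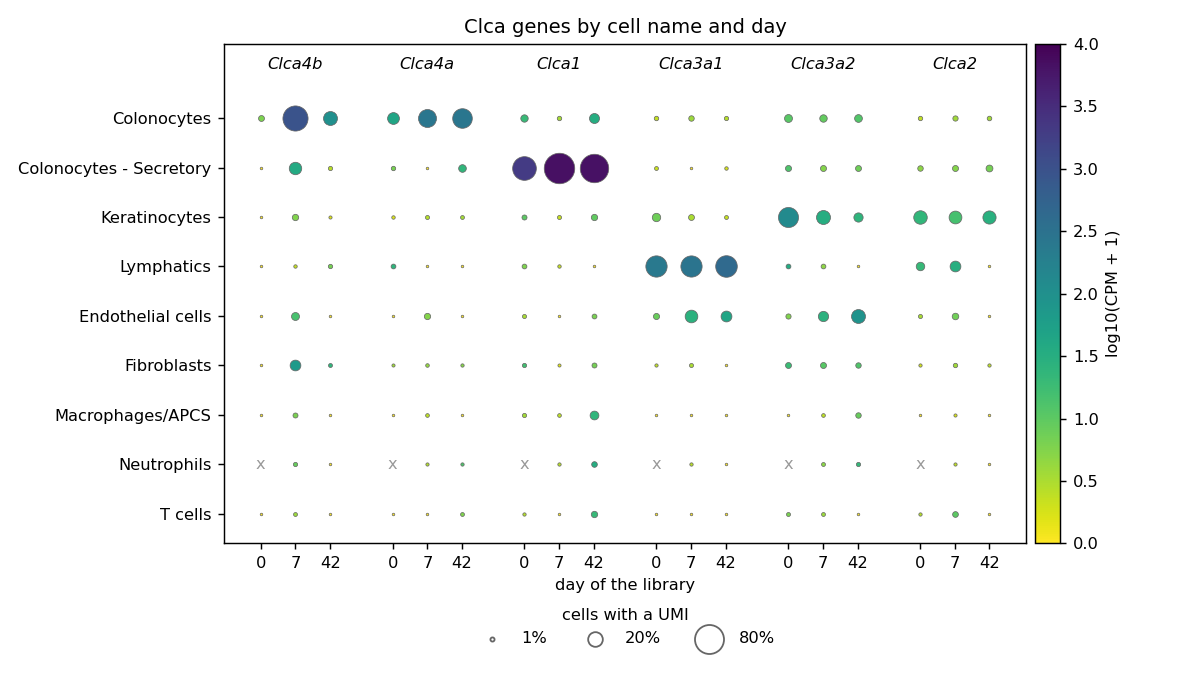
The 6 Clca genes (columns, 3 days each) in 9 of the authors' cell names (rows); colour gives log10(CPM + 1) of summed UMIs and dot area the share of cells with a UMI, and x marks units under 20 cells. Clca4b and Clca4a stand out in colonocytes, Clca1 in secretory colonocytes, Clca3a1 in lymphatic cells, and Clca3a2 in keratinocytes. Clca2 is found in keratinocytes but has a higher CPM in lymphatic cells at day 7 (30.5 against 14.02 CPM).

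Clca4b, a gene of little known function, was almost silent in untreated colonocytes, abundant at day 7 and intermediate at day 42. Its level was 5.18 CPM (4.49 to 5.93) at day 0, 949 CPM (928 to 970) at day 7 and 100.8 CPM (94.7 to 107.3) at day 42. The 3 intervals did not overlap. Day 7 was 183-fold above day 0, a log2 ratio of 5.98 with 10 CPM added to both, which ranked 3rd among the 10033 genes that reached 5 CPM. Day 42 was 19.5-fold above day 0 (log2 ratio 2.87) and 9.41-fold below day 7 (log2 ratio -3.11). The share of colonocytes with a UMI was 2.7%, 60.0% and 18.1% in that order. After thinning every cell to 1000 UMIs the shares were 0.54% (0.33 to 0.83), 36.9% (33.9 to 40.0) and 8.54% (7.11 to 10.1), with 40, 32 and 119 shallower cells left out. T cells, which should lack the gene, had 1 UMI in 118 cells at day 7 (0.85% of cells) at a median depth of 2260 UMIs, against 4027 in colonocytes. Thinned, 0 of 108 T cells had a UMI, which allows up to 2.78% of cells with a UMI at that depth and does not limit the share that express the gene. Other cell types held more, as given further on.

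Within the colonocytes the gene followed the clusters as well as the day. In cluster 2 it was at 13.97, 1153 and 188 CPM at days 0, 7 and 42, with UMIs in 3.9%, 70.7% and 22.5% of cells. A filter on depth and mitochondrial share kept 546 of 1936, 461 of 703 and 691 of 1072 of these cells, and over all colonocytes it gave a log2 ratio of day 7 to day 0 of 6.12. In cluster 7 it was at 1.0 CPM at day 0, 149.7 CPM (126.9 to 175.5) at day 7 in 33 cells, of which 10 held 91.4% of the UMIs, and 7.1 CPM at day 42. Cluster 22 had 200.2 CPM (169.9 to 234.3) at day 7, in 33.7% of cells. With clusters 2 and 7 given equal weight, the log2 ratio of day 7 to day 0 was 5.24.

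**Figure D2:**
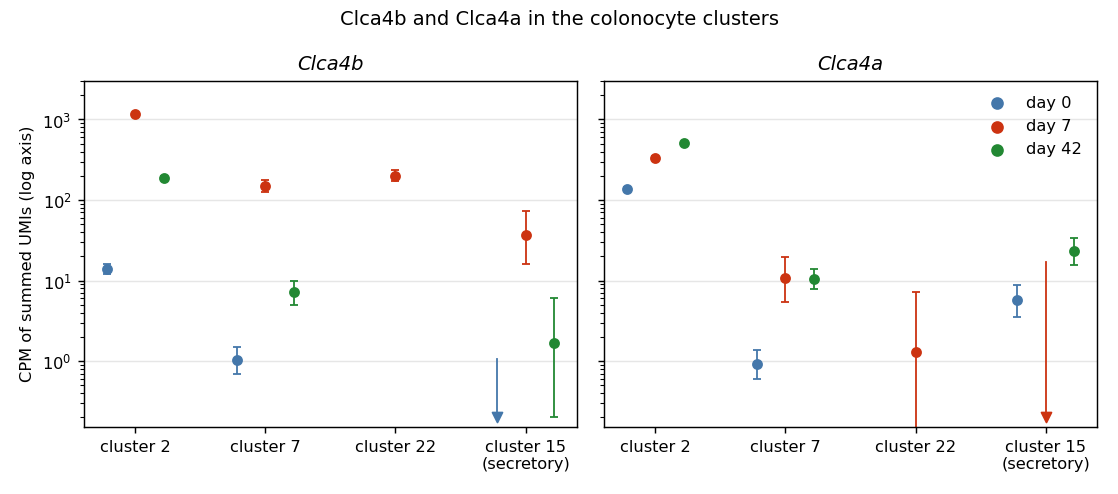
CPM of summed UMIs (log axis) of Clca4b (left) and Clca4a (right) in 4 clusters at days 0, 7 and 42, with 95% Poisson intervals; arrows start at the upper limit of a count of 0, and clusters under 20 cells are left out. In cluster 2 Clca4b is highest at day 7 (1153 CPM) and Clca4a at day 42 (510 CPM).

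Single cells of cluster 2 differed widely. Among the 497 cells with a Clca4b UMI at day 7 the median was 7 UMIs (quartiles 2 and 22), the highest cell had 133, and 215 cells had 10 or more. At day 42 the 241 such cells had a median of 2 UMIs, and at day 0 the 76 such cells a median of 1. The 10 cells with most UMIs held 12.1% of the gene's UMIs in cluster 2 at day 7, so its level did not come from a few cells.

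Outside colonocytes Clca4b was lower, and in the fibroblasts, endothelial cells and keratinocytes of day 7, where this was examined, the cells that held it had more colonocyte marker RNA than those that did not. Secretory colonocytes had 0 UMIs in 479 cells at day 0, 8 UMIs in 35 cells at day 7 (36.8 CPM, 15.9 to 72.6) and 2 UMIs in 179 cells at day 42. Fibroblasts had 0, 66.7 and 23.3 CPM at days 0, 7 and 42. At day 7 the 33 fibroblasts with a Clca4b UMI had 9336 CPM of colonocyte markers against 85.3 CPM in the 283 without, and their median depth was 1268 against 5406 UMIs. Keratinocytes had 0 UMIs in 3316 cells at day 0, 4.63 CPM at day 7 and 0.65 CPM at day 42. Their highest cluster at day 7 was cluster 12, at 33.1 CPM in 6.4% of 1668 cells, and there too the 107 cells with Clca4b had more colonocyte marker RNA, 3060 against 930 CPM. Whether these are doublets or free RNA was not tested.

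Clca4a, known from the apical surface of intestinal enterocytes, took another course over the days. Its colonocyte level was 44.3 CPM (42.2 to 46.4) at day 0, 267 (256 to 278) at day 7 and 269 (259 to 280) at day 42. Days 7 and 42 overlapped, and each lay about 6-fold above day 0 (log2 ratios 2.35 and 2.36). In cluster 2 the order was day 0, day 7, day 42, at 136, 335 and 510 CPM, with intervals that did not overlap and UMIs in 23.8%, 43.1% and 48.3% of cells. The thinned shares there were 12.3%, 24.3% and 35.2%. In cluster 7 it was lower throughout, at 0.92 (0.60 to 1.36), 10.8 (5.41 to 19.4) and 10.5 (7.78 to 13.8) CPM from 25, 11 and 50 UMIs, and days 7 and 42 lay 11.7-fold and 11.3-fold above day 0. Cluster 22 had 1 UMI at day 7. The share of colonocytes in cluster 2 was also larger at days 7 and 42. With clusters 2 and 7 given equal weight the log2 ratio of day 7 to day 0 was 1.22, and with the mean of per-cell CPM it was 1.52.

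Clca4b and Clca4a were thus the 2 of 4 members at 5 CPM or more that were higher by a log2 ratio of at least 1 at day 7 than at day 0 in colonocytes, where 3.48% of all genes were. The same pair passed at day 42 against day 0 (1.08% of genes), and in cluster 2 at day 7 against day 0 (2.53% of genes). In cluster 2 at day 42 against day 0, 3 of 4 passed, Clca1 being the other (1.29% of genes). Clca4b alone was lower at day 42 than at day 7 by that measure (1.34% of genes). Since these contrasts were the ones the family was chosen on, nothing is read from these counts. The comparisons of days 7 and 42 share the day 0 library. Across all genes the median log2 ratio at day 7 against day 0 was -0.14 in colonocytes and 0.04 in cluster 2.

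Some cells held both neighbours, at shares that also depend on how many cells held each gene on a day. In cluster 2 at day 0, 29 cells held both, which was 38.2% of the 76 Clca4b cells and 6.3% of the 460 Clca4a cells. At day 7, 258 cells held both: 51.9% of the 497 Clca4b cells and 85.1% of the 303 Clca4a cells. At day 42, 174 cells held both, which was 72.2% of the 241 Clca4b cells and 33.6% of the 518 Clca4a cells. At equal depth, Clca4a was found in 2 of 18 Clca4b cells at day 0 (11.1%, against 12.3% of the others), in 34.7% of Clca4b cells against 15.6% of the others at day 7, and in 66.1% against 31.0% at day 42. As given above, no 50-base window in the last 500 bases of Clca4b occurs in Clca4a.

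Colonocytes of cluster 2 with a Clca4b UMI held more RNA of surface genes. At day 7, thinned to 1000 UMIs, 311 cells had a Clca4b UMI and 377 did not, with like depths before thinning (medians of 7577 and 7408 UMIs). The 21 surface genes summed to 56.8 UMIs per 1000 in the first and 26.1 in the second. Saa1, an acute-phase protein, was at 16.1 (15.6 to 16.5) against 4.93 (4.71 to 5.16) UMIs per 1000. Lypd8, a surface protein that keeps flagellated bacteria off the colon lining, was at 28.2 against 13.8, the carbonic anhydrase Car4 at 2.17 against 0.69, and the keratin Krt20 at 0.90 against 0.39. Wound-associated genes summed to 5.99 against 4.05. Of these, Duoxa2, the maturation factor of an H2O2-producing oxidase, was at 0.41 against 0.17. Not every gene of these lists went this way: the growth factor Areg was at 0.62 against 0.63, with overlapping intervals. Agr2, which helps fold mucins in goblet cells, was lower in Clca4b cells at 0.048 (0.027 to 0.080) against 0.252 (0.204 to 0.308), and so was the keratin Krt10, at 0.11 against 0.29. Goblet cell genes summed to 0.36 against 0.57, and Agr2 alone made up nearly all of that difference. Squamous genes summed to 0.75 against 1.14, and crypt base and dividing cell genes to 0.138 against 0.125. At day 42, with 115 cells with Clca4b and 844 without, and unlike depths before thinning (medians of 3077 and 4454 UMIs), the order was alike for Saa1 (9.66 against 4.17), Lypd8 (39.4 against 23.9), Krt20 (1.07 against 0.62) and Agr2 (0.026 against 0.175), but not for Krt10 (0.052 against 0.050, with overlapping intervals). The 21 surface genes summed to 60.6 against 38.3 UMIs per 1000 at day 42. Saa1 and Lypd8 made up most of both sums, and the other surface genes together differed little. Cells with a Clca4a UMI also held more surface RNA than those without, at 29.7 against 16.7 UMIs per 1000 at day 0, 54.3 against 35.3 at day 7 and 57.4 against 32.05 at day 42, with lower depths before thinning in the first (medians of 4972 and 8611 UMIs at day 7). The anion transport list was at 1.30 against 0.96 in cells with and without Clca4b at day 7 and at 1.32 against 1.69 at day 42. Cells were grouped by 1 gene within 1 library, so these values describe cells and are not replicated.

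**Figure D3:**
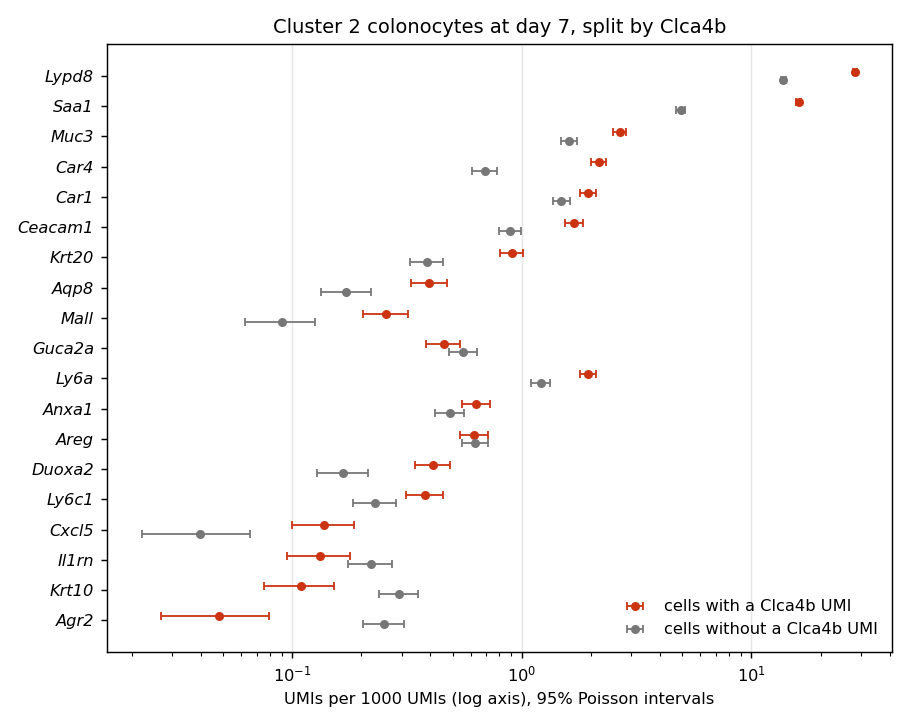
UMIs per 1000 UMIs (log axis, 95% Poisson intervals) of 19 genes chosen from the surface, wound, goblet and squamous lists, in cluster 2 cells of day 7 with (311, red) and without (377, grey) a Clca4b UMI after thinning to 1000 UMIs. Saa1 is at 16.1 against 4.93 and Agr2 at 0.048 against 0.252, and the intervals of Areg overlap.

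The rest of the colonocyte RNA gives the setting of day 7. For all counts that follow, 3.48% of all genes were higher and 2.14% lower in colonocytes by a log2 ratio of at least 1 at day 7 against day 0, and 2.53% and 0.871% in cluster 2. Of 21 surface genes at 5 CPM or more, 10 were higher and none lower, with a median of 0.99; in cluster 2 alone 3 of 20 were higher and 2 lower, with a median of 0.58. Saa1 went from 364 to 5625 CPM and was at 1450 CPM at day 42, while Slc37a2 was at 36.4, 24.1 and 11.1 CPM. Of 22 wound-associated genes, 12 were higher and none lower, with a median of 1.14, and in cluster 2 alone 12 of 20 were. The surface antigens Ly6a and Ly6c1 led, at 96.7, 1754 and 509 CPM and at 9.92, 323 and 35.6 CPM at days 0, 7 and 42. Of 14 crypt base and dividing cell genes, 5 were lower and none higher, among them Stmn1, which binds tubulin, at 353, 94.3 and 229 CPM, and the Wnt target Axin2 at 18.7, 1.6 and 11.8 CPM. In cluster 2 alone 1 of 8 was higher and none lower, with Stmn1 at 35.2, 39.7 and 31.7 CPM. Of 12 anion transport genes, none was higher and 3 were lower. Cftr, the main chloride channel of the crypt, was at 52.2, 10.2 and 54.7 CPM, and Kcnq1, a potassium channel that drives chloride secretion, at 49.2, 6.0 and 34.3 CPM. Within cluster 2 Cftr was at 10.2, 9.0 and 15.8 CPM and Kcnq1 at 7.1, 5.9 and 8.0 CPM, and 1 gene of the list was higher and 2 were lower. Of 11 goblet cell genes, 1 was higher (Sytl2) and 2 were lower (Agr2 and Klk1). In cluster 2 alone 2 of 10 were higher and none lower, with Agr2 at 222, 300.5 and 239 CPM. Of 12 squamous genes, 3 were higher, with Krt6a at 49.4, 293 and 280.0 CPM, and in cluster 2 alone 4 of 11, with Krt6a at 50.9, 136 and 271 CPM.

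Over 60 units of cluster and day with at least 50 cells, the genes whose log2 level was most like that of Clca4b among 8510 genes were Trim15 (Pearson's r 0.88), Mgat4c (0.86), 9130204K15Rik (0.86), Slc51b (0.85) and Slc10a2 (0.85). Slc10a2 takes up bile acids at the apical side of enterocytes and Slc51b is a subunit of the exporter on the other side. In cluster 2 these were at 29.98, 62.4 and 38.7 CPM and at 12.2, 65.2 and 10.9 CPM at days 0, 7 and 42. Clca4a ranked 53rd, at 0.64. Over the 9 columnar units alone the leading genes were Pde9a (0.99), a cyclic GMP phosphodiesterase, Gbp2 (0.98), an interferon-induced GTPase, Dhrs9 (0.98), Dgat2 (0.97) and Trim15 (0.97). Pde9a in colonocytes was at 36.5, 376 and 113 CPM. Nearest to Clca4a were Prss30 (0.91), Slc9a2 (0.89), a sodium-proton exchanger, and Mep1b (0.87), a brush border protease. These units share 3 libraries and are not independent, and with rank correlation none of the 5 genes of Clca4b was among the first 5. Those were Retnlg (Spearman's rho 0.70), which is one of the neutrophil markers, AC110211.1 (0.65), Mmp13 (0.65), a collagenase, Acod1 (0.65), which makes itaconate in activated myeloid cells, and Nos2 (0.65), the inducible nitric oxide synthase.

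Clca1 marked the secretory colonocytes and was higher there after DSS. Its level in cluster 15 was 2044 CPM (1997 to 2092) at day 0 in 479 cells, 6899 (6554 to 7258) at day 7 in 35 cells and 6721 (6574 to 6870) at day 42 in 179 cells. The last 2 overlapped, and they lay 3.38-fold and 3.29-fold above day 0 (log2 ratios 1.75 and 1.71). The share of these cells with a UMI was 53.2%, 88.6% and 77.1%, and at equal depth 39.8%, 67.6% and 62.8%. The 5 secretory markers summed to 18755, 63926 and 36858 CPM in the same cells, highest at day 7, whereas Clca1 was level between days 7 and 42. More than 20% mitochondrial UMIs were found in 51.8%, 54.3% and 22.3% of them, and across all genes of this cluster the median log2 ratio at day 7 against day 0 was -0.28. The cells themselves were scarcer: they made up 4.34% of the library at day 0, 0.24% at day 7 and 1.53% at day 42. Over the whole library Clca1 was at 94.8, 11.3 and 125.5 CPM. The genes most like Clca1 were Muc2 (0.97), the gel-forming mucin of the colon, Fcgbp (0.91), another mucus protein, and Sval1 (0.91).

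In other cells Clca1 was lower than in secretory colonocytes. Colonocytes had 18.9, 2.4 and 32.2 CPM, a log2 ratio of -1.22 at day 7 against day 0. Cluster 2 had 15.9 (13.8 to 18.3), 2.9 (1.8 to 4.5) and 51.6 (45.6 to 58.2) CPM, with log2 ratios to day 0 of -1.003 and 1.25. All keratinocytes had 9.3, 1.3 and 8.6 CPM, with cluster 8 at 14.6, 8.9 and 6.3 CPM and cluster 5 at 44.1, 1.2 and 11.4 CPM (59, 4 and 212 UMIs, the 59 of day 0 in 5 of 87 cells). Muscle-like cells had 54.8 CPM at day 0, with 59 UMIs in 4 of 296 cells, and cluster 6, named Unknown, had 22.3, 11.03 and 99.9 CPM. Enteroendocrine cells had 5 UMIs in 78 cells at day 0, 0 in 12 cells at day 7 and 153 in 12 cells at day 42, all 153 of them in 1 cell. All cells outside the secretory and enteroendocrine clusters together had 14.9, 1.4 and 12.8 CPM. Clca1 was the 1 member of 4 that was lower by a log2 ratio of at least 1 in colonocytes at day 7, as 2.14% of all genes were, and in cluster 2 as well (0.871% of genes). Whether the counts outside secretory cells are RNA taken up from the suspension was not tested.

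Clca3a1 was a gene of lymphatic cells (cluster 21), where all 5 lymphatic markers were found, at 23818 to 38736 CPM in sum. It was at 240 CPM (177 to 317) at day 0, 291 (254 to 331) at day 7 and 432 (340 to 542) at day 42, from 49, 229 and 75 UMIs. Days 0 and 7 overlapped, and day 42 lay above both. Its share of cells was 42.9%, 42.6% and 44.0%, in 63, 190 and 84 cells with median depths of 2689, 3262 and 1736 UMIs. Thinned to 1000 UMIs the shares were 21.1% (11.4 to 33.9), 18.3% (12.97 to 24.8) and 37.1% (25.9 to 49.5), and those of days 7 and 42 did not overlap. Endothelial cells came next at day 7 and day 42, with 27.2 and 43.0 CPM against 7.1 CPM (3 UMIs) at day 0. In keratinocytes it reached 23.2, 10.0 and 18.5 CPM in cluster 13 and 16.9, 7.0 and 14.8 CPM in cluster 8, the clusters where Clca3a2 was also high, and 26 windows of its 3' end are shared with that gene. Genes most like it were Gpm6a (0.91), Wipf3 (0.91) and Gpr182 (0.91), a chemokine-binding receptor of lymphatic endothelium.

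Clca3a2 was a keratinocyte gene, and it was lower at day 7 in the clusters that held most of it. In cluster 8 it was at 349 CPM (335 to 364) at day 0, 156 (148 to 165) at day 7 and 305 (277 to 335) at day 42, with UMIs in 76.4%, 56.6% and 57.7% of cells. Day 7 lay below both other days, whose intervals touched (log2 ratio of day 42 to day 0 -0.19). Cluster 9 was at 168, 36.3 and 110 CPM, cluster 13 at 163, 97.1 and 158 CPM, and cluster 4 at 81.9, 23.0 and 76.8 CPM. In each of these 4 clusters the lowest day was day 7, and in clusters 4, 8 and 13 day 42 overlapped day 0. Clusters 5 and 17 were at 10.5 CPM or less at every day. Thinned shares in cluster 8 were 29.7%, 13.5% and 24.3%. The genes most like Clca3a2 were Igfbp2 (0.83), which binds insulin-like growth factors, Prlr (0.73), the prolactin receptor, and Stard5 (0.73).

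Summed over all keratinocytes the picture was another one. Clca3a2 was at 127.3 CPM (123.5 to 131.2), 31.6 (30.7 to 32.6) and 23.7 (22.5 to 25.03), with log2 ratios to day 0 of -1.72 and -2.02. It was the 1 member of 4 lower by at least 1 on that scale, against 0.971% of genes at day 7 and 1.99% at day 42. Cluster 8, its highest, made up 23.6%, 10.4% and 4.6% of keratinocytes, while cluster 5 went from 2.6% and 1.8% to 27.0%. With equal weight to the clusters, the log2 ratio was -1.11 at day 7 and -0.33 at day 42. Within clusters it was also lower at day 42 than at day 0 in cluster 1 (14.2, 1.5 and 1.6 CPM at days 0, 7 and 42), which made up 38.2% of keratinocytes at day 42, in cluster 3 (14.8, 2.7 and 4.3 CPM) and in cluster 9, with intervals that did not overlap. In endothelial cells it ran the other way, at 4.7 CPM (2 UMIs), 27.2 and 88.6 CPM.

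**Figure D4:**
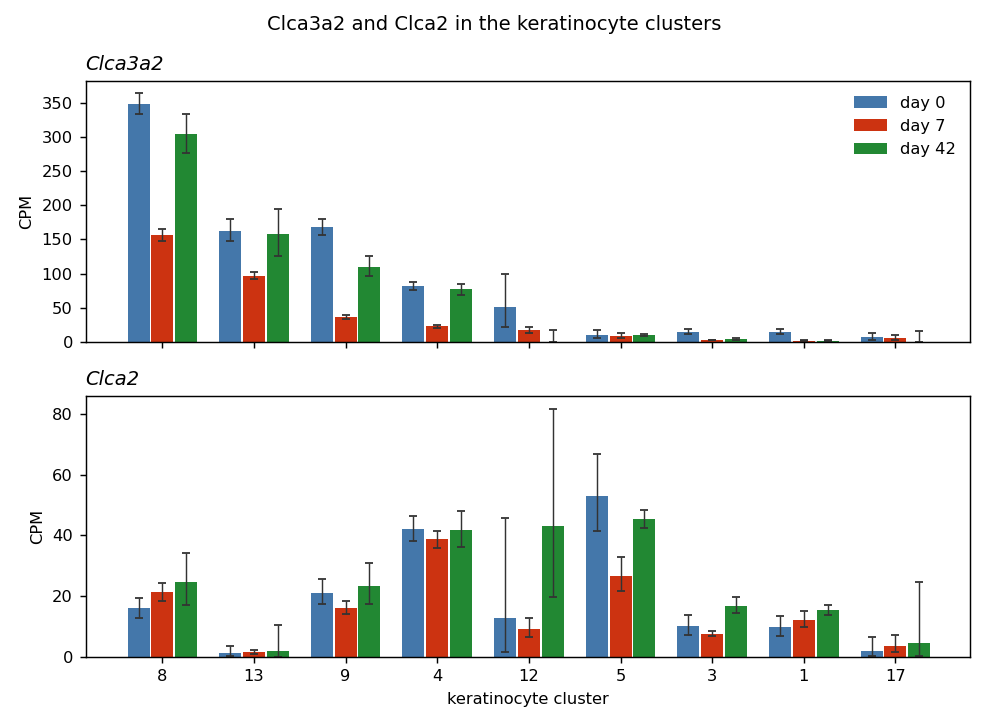
CPM (linear axes from 0) of Clca3a2 (top) and Clca2 (bottom) in 9 keratinocyte clusters at days 0, 7 and 42, with 95% Poisson intervals. Clca3a2 is highest in cluster 8 and lower at day 7 than at the other days there, and Clca2 is high in clusters 4 and 5.

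Clca2, the family member of squamous epithelium, passed the log2 ratio of 1 on neither day in keratinocytes. It was at 22.6 CPM (21.1 to 24.3), 14.02 (13.4 to 14.7) and 27.8 (26.5 to 29.2) in all keratinocytes, with UMIs in 16.9%, 15.1% and 16.1% of cells. Lymphatic cells had 19.6 CPM (5.3 to 50.1) at day 0 from 4 UMIs and 0 UMIs at day 42. At day 7 they had 30.5 CPM (19.5 to 45.3) from 24 UMIs, above all keratinocytes. Cluster 4 was level at 42.1, 38.7 and 41.8 CPM, and its intervals overlapped at all days. Cluster 5 was at 53.1 (41.5 to 67.0), 26.7 (21.5 to 32.8) and 45.3 (42.3 to 48.5) CPM, lowest at day 7. Cluster 13, rich in Clca3a2, had only 1.3 to 1.9 CPM of Clca2. Its nearest genes were Klk11 (0.85), an epithelial serine protease, Ppl (0.85), the desmosome-linked periplakin, and Fam57a (0.83).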

How the data were processed

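Single-cell RNA was measured in 3 pooled libraries (10x Chromium 3', per the labels' protocols). The authors deposited a matrix of whole-number counts per gene and cell, not normalized, with a cell table of day, cluster and name; Cell Ranger 3.0.2 and mm10 are named in the submitters' processing notes. The size factor column the authors deposited is a ratio of each cell's total to the geometric mean, 5283, and was used only to check the order of cells. How clusters and names were made is not given in the sources used here.

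Counts were summed by name or cluster and day and given as CPM. Days were compared as log2 ratios with 10 CPM added, for genes of at least 5 CPM in either day. Folds are given only where both days had more than 3 counts, and a count of 0 entered the log2 ratios as 0. Doublets were not removed; an alternative left out the 5% of cells of highest Scrublet score (scanpy 1.11.5). Shares were also computed with each cell thinned to 1000 UMIs. Likeness was Pearson's r of log2(CPM + 10) over units of at least 50 cells, for genes that reached 50 CPM in some unit; the 5 most like genes are named for Clca4b and 3 for each other member, and from each gene list up to 2 highest and 2 lowest. The ratio and call were tested on simulated Poisson counts, with 200 changed genes of at least 50 CPM. That covers counting error only, not differences between mice or libraries or genes of lower level. All gene identifiers of the family matched GENCODE M21. Motifs, and the genes named in the split of cluster 2, were chosen after values were seen. The members, lists and comparisons were chosen with earlier results of these data known. Alternatives covered the filter on cells, doublets, normalization, pseudocount, weighting of clusters and single cells of high level.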

Additional observations from a re-analysis of the deposited data

Results flagged for a closer look

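Clca1 at day 7 against day 0 had opposite signs in 2 cell types: the log2 ratio was -1.22 in colonocytes and 1.75 in secretory colonocytes, a difference of -2.97. It stands out because the level was lower than at day 0 in one cell type and higher in the other. The difference was not tested, as there is 1 library per day. The secretory value rests on 35 cells at day 7, and the colonocyte value on 21 UMIs at day 7 against 754 at day 0. Keratinocytes had the sign of the colonocytes, with 9.3 CPM at day 0 and 1.3 CPM at day 7. So had all cells outside the secretory and enteroendocrine clusters together, at 14.9 and 1.4 CPM. The whole library was at 94.8 and 11.3 CPM, while secretory cells went from 4.34% to 0.24% of its cells. Whether Clca1 counts outside secretory cells are RNA from the suspension was not tested.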

How the results depend on the processing

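No alternative turned the direction of the 6 ratios between days that were recomputed. Clca4b in colonocytes, day 7 against day 0 (log2 ratio 5.98), was 6.12 with a filter on cells (no fewer than 1000 UMIs or 500 genes, mitochondrial share up to 20%), 6.13 with median-of-ratios size factors, 6.17 without mitochondrial and ribosomal genes in the totals, 5.77 as a mean of per-cell CPM, 7.27 with 1 CPM added, 5.24 with equal weight to clusters 2 and 7, and 6.09 without cluster 22. Its day 42 against day 7 value (-3.11) was -2.95 without the cells of highest Scrublet score, -3.26 with size factors, -2.43 per cell, -3.29 without the 10 cells with most UMIs and -2.62 with equal weight. Clca4a, day 7 against day 0 (2.35), was 2.81 with the filter on cells, 2.13 without cells of highest Scrublet score, 2.54 with size factors, 1.52 per cell, 2.56 with 1 CPM added, 2.18 without the 10 top cells, 1.22 with equal weight and 2.48 without cluster 22. Clca1 in secretory cells, day 42 against day 0 (1.71), was 1.63 with the filter on cells, 1.58 without mitochondrial and ribosomal genes, 2.01 per cell and 1.62 without the 10 top cells. Clca3a2 in keratinocytes, in alternatives chosen after seeing the data, ranged from -1.87 to -1.11 at day 7 and from -2.05 to -0.33 at day 42, where equal weight to clusters gave the value nearest to 0. The share of day 7 colonocytes with Clca4b was 26.5% at 500 and 49.8% at 2000 UMIs per cell. The causes of these shifts were not tested. Of the 5 genes most like Clca4b, 0 were shared with rank correlation and 3 with units of at least 20 cells. No paired analysis was possible because each day has 1 library. The number of cells limits the day 7 values of clusters 7 (33 cells) and 15 (35 cells).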

Other observations

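Clca3b, a neighbour in the same gene cluster that is not among the 6 genes, was high in colonocyte cluster 7, at 101, 141 and 238 CPM at days 0, 7 and 42. In cluster 2 it went from 5.2 CPM (66 UMIs) at day 0 to 134 CPM at day 7 and 76.9 CPM at day 42. Of the 497 cluster 2 cells with Clca4b at day 7, 33.0% held a Clca3b UMI, against 16.99% of the cells without; at equal depth the shares were 9.97% and 6.63%. Keratinocytes had 1.94, 1.85 and 40.6 CPM, and of these clusters cluster 5 had 36.6, 41.8 and 121 CPM. At day 42, 13.01% of the 2153 cluster 5 cells held a UMI of it. The genes most like Clca3b were Slc6a14 (Pearson's r 0.85), an amino acid transporter, Krt19 (0.85) and Elf3 (0.85), an epithelial transcription factor.

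The RefSeq promoter windows of Clca3a2 and Clca3b share a stretch of 69 bases with 1 mismatch, although Clca3a2 was measured mainly in keratinocyte clusters 8, 9, 13 and 4 and Clca3b in colonocytes, which held 95.2%, 81.4% and 38.4% of its UMIs at days 0, 7 and 42, keratinocytes holding 59.2% at day 42. The stretches are shown with the differing base in capitals, on the minus strand, at chr3:144819495-144819563 for Clca3a2 and chr3:144849311-144849379 for Clca3b (RefSeq, GRCm38.p6).
Clca3a2: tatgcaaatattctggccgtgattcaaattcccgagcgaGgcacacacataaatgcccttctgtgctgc
Clca3b: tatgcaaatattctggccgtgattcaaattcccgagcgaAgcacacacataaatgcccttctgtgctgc
It ends 1 base before the RefSeq start of Clca3a2 and 9 bases before that of Clca3b. The annotations differ for Clca3b: GENCODE M21 has its first base at 144849357, so part of the stretch lies inside the gene as annotated there.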
